A study of Mus musculus with 8 samples.

Results

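A set of 6 genes of insulin-like growth factor and insulin receptor signaling, namely Igf1r, Insr, Irs2, Igf2r, Grb10 and Igfbp4, was followed in regulatory T (Treg) cells with and without Foxp1. They were 6 of 27594 genes in the deposited table and were taken by their gene symbols. The set was chosen with earlier results of these data known, so its shares against all genes are descriptions. Igf1r was chosen by its measured level, which was lower in Foxp1-deficient than in WT resting Treg (rTreg) cells, so its values in that comparison, and in the comparisons that share those libraries, are given as a description without a test. RNA was sequenced from CD4+YFP+ cells sorted from the spleens and peripheral lymph nodes of C57BL/6 mice aged 6 to 8 weeks. The rTreg and activated Treg (aTreg) cells were sorted by surface markers, as CD44low and CD44high cells. WT mice carried Foxp3-YFP-Cre, and Foxp1-deficient mice carried Foxp3-YFP-Cre with both Foxp1 alleles flanked by loxP sites (Foxp1fl/fl). Cre and YFP were driven by the Foxp3 locus in both genotypes, so the controls also carried the Cre knock-in, and deletion was directed to cells that express Foxp3. The 8 libraries formed 4 groups of 2 replicates, and the sources used here do not state how many mice went into a library.

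Igf1r encodes the receptor tyrosine kinase for IGF-1 and IGF-2, and Insr encodes the insulin receptor, which is closely related to it and can pair with it in hybrid receptors. Both pass their signal through insulin receptor substrates such as the product of Irs2 to PI3 kinase, AKT and mTOR, and through RAS to the MAP kinases. Igf2r encodes the cation-independent mannose-6-phosphate receptor, which has no kinase domain and clears IGF-2 by carrying it to lysosomes. Grb10 encodes an adaptor that dampens signaling from both kinase receptors, and Igfbp4 encodes a secreted protein that binds IGFs and limits their access to receptors. In T cells, PI3 kinase, AKT and mTOR restrain FOXO factors and are held low in the resting state.

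Between 6373170 and 15268623 reads were counted on genes per library, at which 3 counts were worth between 0.192 and 0.477 CPM (counts per 1000000 counted, scaled by the TMM method). Marker genes of Treg cells summed to between 3159 and 4734 CPM. Markers of CD8 T cells, B cells, myeloid cells, granulocytes, dendritic cells, NK cells and erythroid cells summed to at most 24.7 CPM per list in any library. Plasma cell markers summed to between 78.6 and 119 CPM, with Xbp1 at group means between 84.3 and 103 CPM. Stromal or endothelial markers summed to between 116 and 293 CPM, with Pecam1 at group means between 119 and 278 CPM and Cdh5 and Pdgfrb at no more than 3 counts in any library. Foxp1 was measured in rTreg cells at 353 and 383 CPM in WT and 341 and 337 CPM in Foxp1-deficient libraries, and in aTreg cells at 234 and 230 CPM against 126 and 101 CPM. The count covers all exons of Foxp1 and the sources used here do not give the deleted exons, so the level in rTreg cells does not check the genotype label. Xist had at most 3 counts in each replicate 1 library and at least 15098 in each replicate 2 library. Replicate number, sex and any other difference between the replicates therefore cannot be told apart. Y-linked genes had between 2303 and 4575 counts in the replicate 1 libraries. In replicate 2 they had 430 and 279 counts in WT rTreg and aTreg cells, against 42 and 38 in Foxp1-deficient rTreg and aTreg cells. The part of this difference between genotypes in the results was not tested.

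Of the 6 genes, 5 passed the filter on low counts and were tested in a fit of 14540 genes. The genes lie at chr7:67952827-68233668 on the plus strand (Igf1r, ENSMUSG00000005533), chr8:3122061-3279617 on the minus strand (Insr, ENSMUSG00000005534), chr8:10984681-11008458 on the minus strand (Irs2, ENSMUSG00000038894), chr17:12682406-12769664 on the minus strand (Igf2r, ENSMUSG00000023830), chr11:11930508-12038683 on the minus strand (Grb10, ENSMUSG00000020176) and chr11:99041244-99054392 on the plus strand (Igfbp4, ENSMUSG00000017493), all in GRCm38. All are protein-coding.

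The 250 bases before the RefSeq start are shown for Igf1r, whose level differed between the genotypes, and for Irs2 and Igf2r, which were both lower in aTreg than in rTreg cells. The windows are chr7:67952007-67952256 on the plus strand for Igf1r, chr8:11008930-11009179 on the minus strand for Irs2 and chr17:12769707-12769956 on the minus strand for Igf2r, in GRCm38.p6 from RefSeq. For these genes the RefSeq start lies upstream of the GENCODE M21 start in the coordinates above, so the windows do not adjoin those starts. Capitals mark matches to the motifs searched, which are named after the sequences.
Igf1r: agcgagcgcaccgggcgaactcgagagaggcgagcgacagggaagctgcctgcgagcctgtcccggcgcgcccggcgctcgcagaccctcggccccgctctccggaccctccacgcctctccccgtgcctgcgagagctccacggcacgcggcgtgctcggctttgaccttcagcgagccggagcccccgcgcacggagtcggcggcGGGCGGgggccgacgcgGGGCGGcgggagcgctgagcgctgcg
Irs2: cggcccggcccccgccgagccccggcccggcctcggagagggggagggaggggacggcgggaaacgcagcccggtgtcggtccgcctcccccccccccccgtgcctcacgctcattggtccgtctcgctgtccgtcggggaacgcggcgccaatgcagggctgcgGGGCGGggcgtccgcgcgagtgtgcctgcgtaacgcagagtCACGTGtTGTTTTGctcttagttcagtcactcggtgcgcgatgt
Igf2r: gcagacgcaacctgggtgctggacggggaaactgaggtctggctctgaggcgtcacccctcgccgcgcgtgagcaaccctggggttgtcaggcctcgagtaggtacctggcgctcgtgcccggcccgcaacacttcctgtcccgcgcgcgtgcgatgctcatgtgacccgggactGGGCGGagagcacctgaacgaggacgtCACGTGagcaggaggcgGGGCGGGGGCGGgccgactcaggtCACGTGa

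The motifs searched on both strands were the forkhead heptamer TGTTTAC with its variants TATTTAC and also TGTTTAT and finally TATTTAT, the insulin response element core TGTTTTG, the E-box CACGTG and the GC box GGGCGG. None of the forkhead heptamers was found in the windows of Igf1r, Irs2, Igf2r or Igfbp4, and at least 1 of them is present in 13.6% of the 32851 promoter windows of the same length. The Irs2 window holds CACGTG from base -44 and TGTTTTG from base -37, counted back from the start, and these letters occur in 6.02% and 5.56% of all windows. The Igf2r window holds CACGTG from bases -48 and -7. GGGCGG, which is in 32.7% of all windows, occurs from bases -43 and -26 in Igf1r, from base -85 in Irs2 and from bases -75, -31 and -25 in Igf2r, where the last 2 copies abut. The windows are rich in G and C, at 77.6% for Igf1r, 72.8% for Irs2 and 69.2% for Igf2r, against a median of 52.4% over all windows. The matches describe letters in these windows only.

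Levels were first compared between the genes per length, in fragments per kilobase of exon per 1000000 counted (FPKM) as deposited. In WT rTreg cells the order was Igfbp4 (104 ± 1.44 FPKM), Igf2r (54.5 ± 3.31), Igf1r (11.0 ± 0.389), Irs2 (8.74 ± 4.14), Insr (5.75 ± 0.398) and Grb10, which was listed at 0 in both libraries (mean ± SD, n = 2). The first 3 levels did not overlap between neighbours, while the Irs2 libraries, at 11.7 and 5.81 FPKM, spanned the levels of Igf1r and reached those of Insr. In Foxp1-deficient rTreg cells Igf1r (5.22 ± 0.0607 FPKM) stood below Irs2 (9.30 ± 4.72) and overlapped Insr (5.73 ± 0.691). In aTreg cells Igf2r stood first in both genotypes, at 36.6 ± 2.21 FPKM in WT and 34.0 ± 0.453 FPKM in Foxp1-deficient cells. Igfbp4 stood second in WT aTreg cells (24.3 ± 20.1 FPKM), where its libraries at 10.2 and 38.5 FPKM overlapped the levels of both neighbours, whereas in Foxp1-deficient aTreg cells it (5.66 ± 2.80 FPKM) stood behind Igf1r (9.12 ± 0.344) and overlapped Insr (5.69 ± 0.960) and Irs2 (5.43 ± 2.84).

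**Figure D1:**
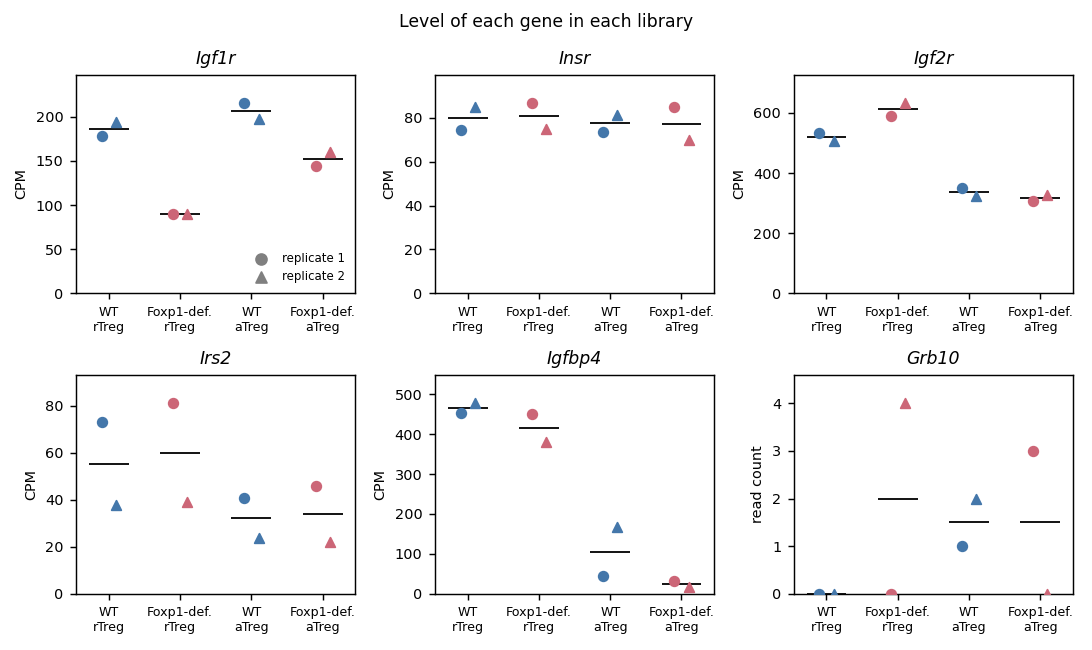
Level of each of the 6 genes in each library, in CPM (read count for Grb10), with circles for replicate 1, triangles for replicate 2 and a bar at the mean. Igf1r was between 89.6 and 90.2 CPM in Foxp1-deficient rTreg cells and at least 144.5 CPM in every other library, whereas Insr stayed between 69.9 and 86.7 CPM throughout.

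The first question was whether the IGF-1 receptor and its partners differed between Foxp1-deficient and WT rTreg cells. Igf1r was at 179 and 194 CPM in the WT libraries and at 89.6 and 90.2 CPM in the Foxp1-deficient libraries. The groups did not overlap, and the Foxp1-deficient level was 2.07-fold lower (log2 fold change -1.05, SE 0.08), with differences of -0.995 in the replicate 1 pair and -1.11 in the replicate 2 pair on the log2 scale. With 2 libraries per group, groups can stand apart without a true difference. The share of all genes whose groups did not overlap was not counted, so non-overlap is a description here and below. In sorted bulk cells, fewer cells with the Igf1r transcript and less of it per cell cannot be told apart.

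Of the 4 other genes tested in rTreg cells, none passed an adjusted p under 0.05 in edgeR, a threshold that 12% of all genes passed. With limma-voom and DESeq2 the count at the adjusted threshold was again 0. Insr, the receptor most like Igf1r, was at 74.5 and 85.0 CPM in WT and at 86.7 and 74.8 CPM in Foxp1-deficient rTreg cells, with overlapping groups. Its log2 fold change was 0.01 with a 95% interval from -0.27 to 0.29 (adjusted p = 0.980, edgeR quasi-likelihood test with Benjamini-Hochberg adjustment), and the sign turned under 7 of the 10 other settings. The replicate pairs went opposite ways, at 0.22 in replicate 1 and -0.18 in replicate 2. Igf2r was at 532 and 505 CPM in WT and at 590 and 632 CPM in Foxp1-deficient rTreg cells. The Igf2r groups did not overlap, and the log2 difference of 0.24 (SE 0.07) missed the threshold (adjusted p = 0.0625, edgeR), although it passed when the rTreg libraries were fitted alone (adjusted p = 0.0437, edgeR) or without a filter on low counts (adjusted p = 0.0286, edgeR).

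Irs2 was at 73.1 and 37.7 CPM in WT and at 81.0 and 39.1 CPM in Foxp1-deficient rTreg cells. The spread between replicates exceeded the difference between genotypes, which was 0.10 on the log2 scale (SE 0.09, adjusted p = 0.489, edgeR). Igfbp4 was at 452 and 477 CPM in WT and at 451 and 381 CPM in Foxp1-deficient rTreg cells, a log2 difference of -0.15 with an interval from -1.31 to 1.00 (adjusted p = 0.882, edgeR). The Igfbp4 groups did not overlap, but the replicate 1 levels of the genotypes were nearly equal. In rTreg cells Grb10 was at 0 counts in either WT library and at 0 and 4 counts in the Foxp1-deficient libraries, and was not tested. It had at most 3 counts in 7 of the 8 libraries, so its expression was not detectable at this depth in those. Granulocyte markers summed to between 0 and 0.368 CPM in WT rTreg cells, with 2 of the 4 markers at 0 in both libraries, and to between 5.12 and 11.6 CPM in Foxp1-deficient rTreg cells. Their part in the results was not tested.

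In aTreg cells, whose libraries were not used to choose Igf1r, the gene was lower in the absence of Foxp1. The edgeR fit shares its estimate of the spread and the replicate block with the rTreg libraries. Deviations from the group means correlated between same-numbered rTreg and aTreg libraries at 0.597 in WT and 0.548 in Foxp1-deficient cells. Whether both came from the same mice is not stated, so the test is not fully independent of the choice. Igf1r was at 215 and 198 CPM in WT and at 145 and 160 CPM in Foxp1-deficient aTreg cells, and the groups did not overlap. The level fell by 0.44 on the log2 scale (SE 0.08, interval -0.62 to -0.26), which is 1.36-fold, with an adjusted p of 0.0181 (edgeR). The level was lower in 2 of 2 pairs, at -0.58 in replicate 1 and -0.31 in replicate 2. The fall was less than the 1.5-fold that the study required between genotypes. The call held in 10 of 18 alternative settings and was lost without the replicate block (adjusted p = 0.105, edgeR), with the aTreg libraries fitted alone (adjusted p = 0.0658, edgeR), on log2 FPKM values, and without WT aTreg replicate 1 (adjusted p = 0.0731, edgeR) or either Foxp1-deficient aTreg library (adjusted p = 0.0980 and 0.0891, edgeR), while the log2 difference ranged from -0.55 to -0.33. Granulocyte markers summed to between 2.58 and 24.7 CPM in Foxp1-deficient and to between 1.92 and 2.63 CPM in WT aTreg cells, and their part in the result was not tested.

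Igf1r was 1 of 5 genes past the adjusted p in this comparison, where 6.88% of all genes passed and 2.77% passed as lower. Insr was at 73.6 and 81.4 CPM in WT and at 84.9 and 69.9 CPM in Foxp1-deficient aTreg cells, a log2 difference of -0.01 with an interval from -0.29 to 0.27 (adjusted p = 0.974, edgeR). As in rTreg cells, the Insr pairs went opposite ways, at 0.21 in replicate 1 and -0.22 in replicate 2. Igf2r was at 350 and 324 CPM in WT and at 308 and 329 CPM in Foxp1-deficient aTreg cells, with overlapping groups and a log2 difference of -0.08 (interval -0.24 to 0.08, adjusted p = 0.533, edgeR). Irs2, at 40.9 and 23.8 CPM against 45.6 and 22.0 CPM, also overlapped (log2 difference 0.03, interval -0.18 to 0.23, adjusted p = 0.896, edgeR). Grb10 had 1 and 2 counts in WT and 3 and 0 counts in Foxp1-deficient aTreg cells.

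Igfbp4 gave the widest spread. It was at 43.6 and 166 CPM in WT aTreg cells and at 32.7 and 16.5 CPM in Foxp1-deficient aTreg cells. The groups did not overlap, but the WT level in replicate 1 was 0.262 times that in replicate 2. The log2 difference of -2.05 (SE 0.57) missed the threshold (adjusted p = 0.0790, edgeR), and it was -2.95 (adjusted p = 0.00181, edgeR) without WT aTreg replicate 1 and -0.71 (adjusted p = 0.289, edgeR) without WT aTreg replicate 2. It was -1.32 (adjusted p = 0.455, edgeR) without Foxp1-deficient aTreg replicate 2 and -2.03 (adjusted p = 7.26e-06, edgeR) without a filter on low counts.

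The subsets were compared within each genotype, to ask which of these genes distinguish aTreg from rTreg cells. In WT cells, 3 of the 4 genes tested fell from rTreg to aTreg cells at an adjusted p under 0.05, against 13.6% of all genes that fell and 31.9% that changed in either direction. The genes were chosen with earlier results of these data known, so this share is a description and does not test them as a set. Igf2r fell from 532 and 505 CPM to 350 and 324 CPM (log2 fold change -0.62, SE 0.07, adjusted p = 4.34e-04, edgeR). Irs2 fell from 73.1 and 37.7 CPM to 40.9 and 23.8 CPM (-0.75, SE 0.09, adjusted p = 5.73e-04, edgeR). Igfbp4 fell from 452 and 477 CPM to 43.6 and 166 CPM (-2.18, SE 0.53, adjusted p = 0.0171, edgeR), and was the one gene of the 3 past the 2-fold threshold of the study. Insr differed by -0.04 (interval -0.32 to 0.24, adjusted p = 0.845, edgeR).

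In Foxp1-deficient cells Igf2r, Irs2 and Igfbp4 passed, 3 of 4 genes tested, where 18.2% of all genes fell and 40.1% changed in either direction. This share too is a description. Igf2r fell from 590 and 632 CPM to 308 and 329 CPM (log2 fold change -0.94, SE 0.07, adjusted p = 4.35e-05, edgeR). Irs2 fell from 81.0 and 39.1 CPM to 45.6 and 22.0 CPM (-0.83, SE 0.09, adjusted p = 2.56e-04, edgeR). Igfbp4 fell from 451 and 381 CPM to 32.7 and 16.5 CPM (-4.07, SE 0.58, adjusted p = 0.00112, edgeR), a 16.8-fold lower level. For Igf2r and Igfbp4 the rTreg and aTreg groups did not overlap in either genotype, whereas those of Irs2 overlapped in both and each pair was lower in aTreg cells. The share of all genes without such overlap was not counted. Insr differed by -0.06 (interval -0.34 to 0.23, adjusted p = 0.744, edgeR). Stromal or endothelial markers moved with the subsets, from between 258 and 293 CPM in rTreg to between 116 and 133 CPM in aTreg cells, mostly through Pecam1, while Col1a1 was higher in aTreg cells (group means 3.76 and 3.86 against 0.33 and 0.23 CPM). B cell markers summed to between 7.91 and 9.55 CPM in rTreg and between 18.2 and 21.2 CPM in aTreg cells, with Ms4a1 at no more than 4 counts in any library. The part of these marker differences in the falls was not tested.

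**Figure D2:**
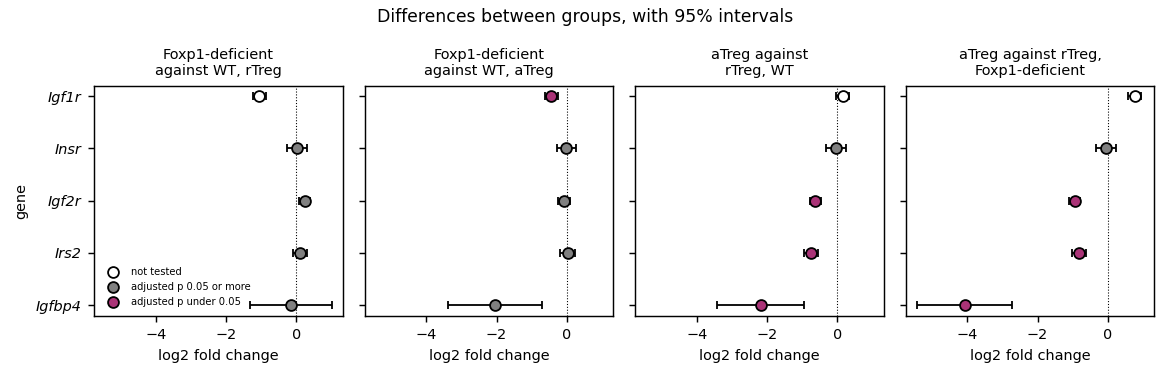
Log2 fold change of 5 genes in 4 comparisons with 95% intervals from the edgeR fit, with filled purple points for an adjusted p under 0.05, grey points for tested genes above it and open points for Igf1r where it was not tested. The open points share libraries on which Igf1r was chosen, so their intervals are descriptions and not tests. Igf2r, Irs2 and Igfbp4 lie below 0 in both comparisons of subsets, Igf1r lies below 0 in both comparisons of genotypes, and Insr lies within 0.06 of 0 in all 4.

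Irs2 differed between replicates in the same manner in all 4 groups. Its level in replicate 1 was 1.94 times that in replicate 2 in WT rTreg cells, 2.07 times in Foxp1-deficient rTreg cells, 1.72 times in WT aTreg cells and 2.08 times in Foxp1-deficient aTreg cells. The difference between subsets was -0.84 and -0.67 in the replicate 1 and 2 pairs of WT cells and -0.83 in both pairs of Foxp1-deficient cells, and without the replicate block the adjusted p was 0.368 in WT and 0.308 in Foxp1-deficient cells (edgeR). The other receptor genes had replicate ratios between 0.876 and 1.21 in all groups. For Igfbp4 in WT cells, leaving out WT rTreg replicate 1 (adjusted p = 0.0644, edgeR) or replicate 2 (adjusted p = 0.0790, edgeR) ended the call, and the log2 fold change was -1.34 without WT aTreg replicate 1 and -3.58 without WT aTreg replicate 2.

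Airn, an antisense noncoding RNA that initiates within Igf2r, is known for silencing Igf2r in cis on the paternal allele in many tissues. In rTreg cells Airn was at 18.2 and 16.1 CPM in WT against 25.0 and 25.5 CPM in Foxp1-deficient libraries, and in aTreg cells at 8.44 and 7.43 CPM against 7.11 and 3.80 CPM. The group means of Airn and Igf2r ranked in the same order, with Foxp1-deficient rTreg cells highest and Foxp1-deficient aTreg cells lowest, although the Igf2r levels of the aTreg groups overlapped. Airn fell by 1.11 on the log2 scale from WT rTreg to WT aTreg cells (adjusted p = 0.00509, edgeR). The genes share 0 annotated exonic bases, and the library kit does not mark strand, so reads that fall where their introns and exons overlap cannot be assigned to a strand. Alleles were not resolved. Irs2 shares 162 exonic bases (2.56% of its exons) with 9530052E02Rik on the opposite strand, which had at most 4 counts in any library.

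Igf1r did not follow that pattern. Its level in aTreg cells against rTreg cells was 0.15 higher on the log2 scale in WT cells and 0.76 higher in Foxp1-deficient cells, both given without a test because they share the rTreg libraries on which the gene was chosen. The WT rTreg and WT aTreg levels (179 and 194 against 215 and 198 CPM) did not overlap but lay close together, while the Foxp1-deficient levels (89.6 and 90.2 against 145 and 160 CPM) were wide apart. The genotype difference in aTreg cells was 0.61 nearer to 0 than that in rTreg cells. Of the 4 other genes, none passed the test of this difference between the genotype effects in edgeR, limma-voom or DESeq2. In edgeR 0.33% of all genes passed. The differences were -0.32 for Igf2r (adjusted p = 0.211, edgeR) and -1.89 for Igfbp4 (adjusted p = 0.346, edgeR). They were -0.02 for Insr (adjusted p = 0.987, edgeR) and -0.08 for Irs2 (adjusted p = 0.866, edgeR). Igfbp4 was at -2.77 without WT aTreg replicate 1, and it passed without a filter on low counts (adjusted p = 0.00343, edgeR).

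The ratio of receptor transcripts was taken within each library from FPKM values, which removes the scaling between libraries. Igf1r stood at 1.96 and 1.87 times Insr in WT rTreg cells, 0.846 and 0.987 times in Foxp1-deficient rTreg cells, 2.40 and 1.99 times in WT aTreg cells and 1.39 and 1.87 times in Foxp1-deficient aTreg cells. Insr thus exceeded Igf1r only in the Foxp1-deficient rTreg libraries. Igf2r stood at 5.30 and 4.63 times Igf1r in WT rTreg cells, 11.7 and 12.5 times in Foxp1-deficient rTreg cells, 2.89 and 2.91 times in WT aTreg cells and 3.79 and 3.66 times in Foxp1-deficient aTreg cells. These ratios contain the Igf1r values that led to its choice and were not tested.

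**Figure D3:**
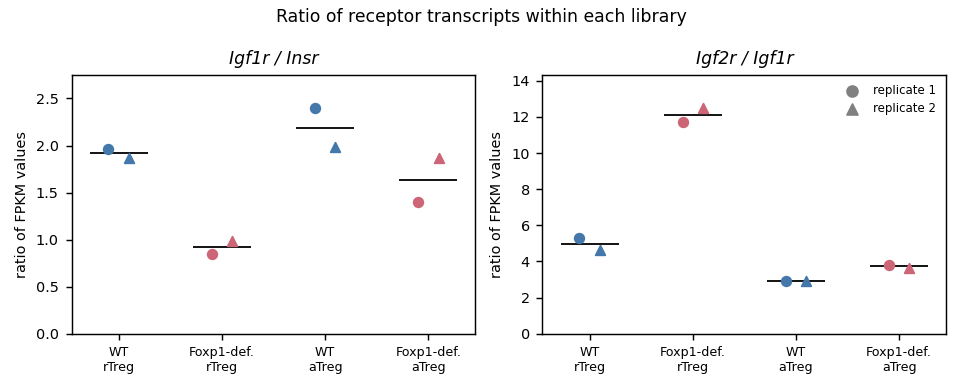
Ratio of FPKM values of Igf1r to Insr (left) and of Igf2r to Igf1r (right) within each library, with circles for replicate 1, triangles for replicate 2 and a bar at the mean. The Foxp1-deficient rTreg libraries have the lowest ratios of Igf1r to Insr, 0.846 and 0.987, and the highest ratios of Igf2r to Igf1r, 11.7 and 12.5.

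The genes most like Igf1r over the 8 libraries were sought among the 10148 tested genes with a mean of at least 5 CPM, by Pearson's correlation of log2 CPM. They were 2310022B05Rik (r = 0.977), Atf2 (0.977), Pou6f1 (0.975), Mbip (0.975) and Tnfrsf10b (0.971). The 8 points share their groups in pairs, so the values describe levels of 4 groups rather than 8 independent samples. Pou6f1, a POU-domain transcription factor, was in rTreg cells at 78.7 and 82.2 CPM in WT against 25.8 and 27.4 CPM in Foxp1-deficient libraries, and in aTreg cells at 75.8 and 83.9 CPM against 48.5 and 50.2 CPM. Atf2, a transcription factor of the CREB family, had its group means in the order of those of Igf1r, with single libraries between 61.1 and 75.9 CPM. The other genes followed here had lower correlations with Igf1r, at -0.20 for Insr, -0.31 for Igfbp4, -0.39 for Irs2 and -0.61 for Igf2r.

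The rest of the pathway was followed with a list of 88 further genes in 9 roles, from ligands to the MAP kinase branch. Of these, 70 passed the filter on low counts. The list was chosen with earlier results of these data known, so its shares against all genes are descriptions and do not test it. Transcripts of Igf1, of the binding proteins Igfbp2, Igfbp3 and Igfbp5, and of Irs1, the substrate that pairs with Irs2 in many tissues, were not detectable at this depth, with at most 3 counts in every library. In rTreg cells, 6 of the 70 genes (8.57%) passed both the adjusted p and the 1.5-fold threshold, against 5.6% of all genes. Of these, 3 were higher in Foxp1-deficient cells, where the background was 2.9%, and 3 were lower, where it was 2.7%. The count was 3 without WT rTreg replicate 1 and 2 without Foxp1-deficient rTreg replicate 2. The median log2 fold change of the list was -0.05, against 0.00 over all genes. In aTreg cells 3 of 70 (4.29%) passed, all higher, against 4.03% of all genes and 2.37% higher, with a list median of 0.01. The count was 1 without Foxp1-deficient aTreg replicate 2.

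Brakes on the signal were 17 of the 70 genes tested. As the list was chosen with earlier results of these data known, the shares below are descriptions and do not test the brakes as a set. In rTreg cells 4 of the 17 passed both thresholds, 3 higher and 1 lower, against 5.6% of all genes in either direction, and in aTreg cells 3 passed, all higher, against 4.03% of all genes in either direction and 2.37% higher. Ptprf, a receptor-type tyrosine phosphatase known to act on the insulin receptor, was at 10.3 and 8.16 CPM in WT and at 265 and 231 CPM in Foxp1-deficient rTreg cells, a 26.9-fold rise (log2 fold change 4.75, SE 0.09, adjusted p = 5.92e-07, edgeR). It was at 7.23 and 7.43 CPM in WT and at 79.2 and 73.0 CPM in Foxp1-deficient aTreg cells (3.36, SE 0.09, adjusted p = 4.97e-06, edgeR). Phlpp1, a phosphatase that removes an activating phosphate from AKT, was at 55.8 and 53.5 CPM in WT and at 239 and 247 CPM in Foxp1-deficient rTreg cells (2.15, SE 0.11, adjusted p = 8.59e-05, edgeR). In aTreg cells Phlpp1 rose from 97.2 and 72.7 CPM to 161 and 162 CPM (0.94, SE 0.11, adjusted p = 0.00424, edgeR). Neither gene's groups overlapped in either subset. The genotype effect was smaller in aTreg than in rTreg cells for both, at -1.40 for Ptprf (adjusted p = 0.0192, edgeR) and -1.22 for Phlpp1 (adjusted p = 0.0304, edgeR), 2 of 70 pathway genes past both thresholds in the test of this difference, against 0.323% of all genes in either direction and 0.144% that were lower. Both differences between subsets lost their call without the replicate block (adjusted p = 0.181 and 0.218, edgeR), on log2 FPKM values and without several single libraries. Between genotypes, Ptprf in both subsets and Phlpp1 in rTreg cells passed in 18 of 18 alternative settings. Phlpp1 in aTreg cells passed in 16, and did not without Foxp1-deficient aTreg replicate 2 (adjusted p = 0.0585, edgeR) or on log2 FPKM plus 1 without a filter (adjusted p = 0.0893, limma).

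Of the other brakes, Enpp1, a membrane protein that inhibits the insulin receptor, rose by 0.64 in Foxp1-deficient rTreg cells, from 19.9 and 25.2 CPM to 35.2 and 35.1 CPM (adjusted p = 0.0212, edgeR). Inpp4b, a phosphatase of phosphoinositides, fell by 0.61, from 695 and 836 CPM to 466 and 538 CPM (adjusted p = 9.78e-04, edgeR). Phlpp2, the paralog of Phlpp1, rose by 0.64 in Foxp1-deficient aTreg cells, from 23.3 and 17.8 CPM to 31.1 and 32.4 CPM (adjusted p = 0.0328, edgeR). Without the replicate block none of these 3 passed (adjusted p = 0.0709 for Enpp1, 0.131 for Inpp4b and 0.146 for Phlpp2, edgeR). Enpp1 also lost its call without WT rTreg replicate 1 or either Foxp1-deficient rTreg library and held in 11 of 18 settings, Inpp4b was under 1.5-fold without Foxp1-deficient rTreg replicate 2 and held in 16, and Phlpp2 held in 6, having lost its call when any library other than WT aTreg replicate 1 was left out.

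**Figure D4:**
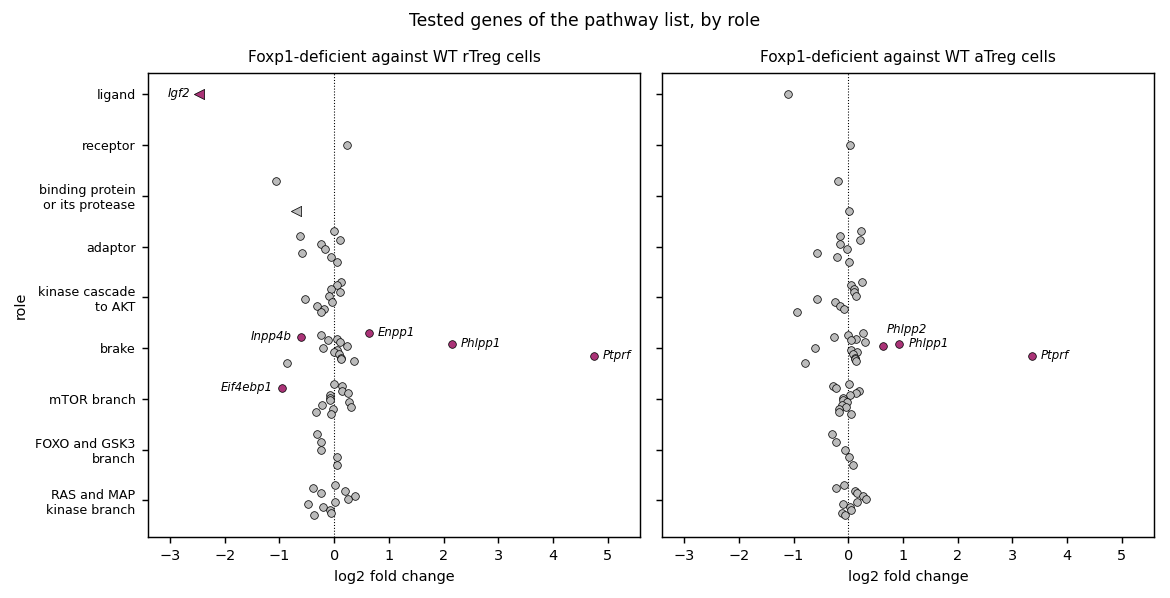
Log2 fold change of the 70 tested pathway genes by role in Foxp1-deficient against WT rTreg (left) and aTreg cells (right), with purple symbols for genes past the adjusted p and the 1.5-fold threshold. Left-pointing triangles mark 2 genes with at most 3 counts in each Foxp1-deficient rTreg library, placed with that group at 3 counts per library, and Ptprf at 4.75 and 3.36 is the highest point in both panels.

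Outside the brakes, Eif4ebp1, the translational repressor that mTOR inactivates, fell from 7.91 and 7.30 CPM to 3.98 and 3.82 CPM in Foxp1-deficient rTreg cells (log2 fold change -0.96, SE 0.17, adjusted p = 0.0140, edgeR). Igf2, a ligand of Igf1r and Igf2r, had 29 and 15 counts in WT rTreg cells and 0 counts in both Foxp1-deficient libraries, an at least 5.54-fold lower level against the floor of 3 counts per library (adjusted p = 0.0103, edgeR). In aTreg cells Igf2 had 12 and 19 counts in WT and 11 and 5 counts in Foxp1-deficient libraries. Leaving out any 1 of the 4 rTreg libraries ended the call of Eif4ebp1 (adjusted p between 0.0699 and 0.122, edgeR), and leaving out WT rTreg replicate 1 or either Foxp1-deficient rTreg library ended that of Igf2 (adjusted p between 0.0517 and 0.0831, edgeR), as did the fit without the replicate block (adjusted p = 0.0528, edgeR). Igf2 shares 62.8% of its exonic bases with Gm49394 on the same strand, so its counts are uncertain. The kinases from PI3 kinase to AKT, the FOXO and GSK3 branch and the MAP kinase branch had 0 genes past both thresholds in either genotype comparison in edgeR, out of 10, 5 and 12 tested. At the adjusted p alone, rTreg cells had 1, 1 and 4 of them past it, against 12% of all genes, and aTreg cells 1, 1 and 1, against 6.88%.

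Between subsets, 8 of 70 pathway genes (11.4%) passed the adjusted p and 2-fold thresholds in WT cells, against 12.3% of all genes. In aTreg cells 6 of them were higher, where the background was 9.5%, and 2 lower, where it was 2.83%. The count was 5 without WT rTreg replicate 1 or WT aTreg replicate 1. In Foxp1-deficient cells 13 of 70 (18.6%) passed, against 15.7% of all genes, and 9 were higher (background 11.3%) and 4 lower (background 4.39%). The list medians were -0.03 and 0.00. These counts include Insrr, the remaining gene of the insulin receptor family, and Stc2 and Igfbp7 of the binding protein role, which are named after their values were seen. All 3 passed the filter on low counts through their aTreg libraries, as did the adaptor gene Sh2b2, so their being higher there is a description. The counts of genes higher in aTreg cells hold such genes, so they do not test the list against the background. Sh2b2 had 0 and 2 counts in WT and 1 and 0 counts in Foxp1-deficient rTreg libraries, and 18 and 11 against 8 and 13 counts in aTreg libraries. Insrr had 1 and 1 counts in WT and 0 and 2 counts in Foxp1-deficient rTreg libraries, and 32 and 32 against 31 and 40 counts in aTreg libraries. Stc2, a secreted inhibitor of the proteases that cleave Igfbp4, had 8 and 5 counts in WT and 0 and 1 counts in Foxp1-deficient rTreg libraries, and 30 and 51 against 32 and 55 counts in aTreg libraries. Igfbp7 had at most 3 counts in each rTreg library and between 9 and 25 counts in the aTreg libraries.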

How the data were processed

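RNA was sequenced from 8 libraries, 2 in each of 4 groups. Per the labels and the study's methods, the authors ran FastQC on the read pairs, used trim_galore to trim adapters and low-quality ends, dropped duplicates using Picard and assigned reads to genes by htseq-count. The submitters' processing notes name HISAT2 2.0.5, HTSeq and mm10. The strand setting of the counter is not given in the sources used here, and the library kit does not mark strand. The deposited counts are whole reads per gene without normalization. The authors also deposited FPKM values, which equal the count divided by the library total and 1 length per gene, and were used to compare genes with each other. Coordinates and exon overlaps are those of GENCODE M21.

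The counts went into edgeR 4.0.16 under R 4.3.3 (glmQLFit, glmQLFTest) after TMM normalization and filterByExpr (minimum count 10), for 14540 genes and all 8 libraries, as group means plus a block for the replicate number. Benjamini-Hochberg adjustment covered all genes tested. As in the study, the thresholds were an adjusted p of 0.05 with 1.5-fold between genotypes and 2-fold between subsets, and for the 6 genes the adjusted p alone. The block follows the replicate numbers of the labels and the paired analysis in the study's methods. Deviations from the group means correlated between same-numbered libraries at 0.355 to 0.597 over 14540 genes in all 6 pairs of groups. Replicates are those of the labels. The replicates of a group differed in Xist, so they do not come from the same mouse or pool of mice. The number of mice in a library is not stated, so p-values may not measure the spread between single mice.

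CPM values are TMM-scaled. Levels of 3 counts served as the floor, which covers counting error only. The text names the 6 genes, every pathway gene past both thresholds between genotypes, the 5 genes most correlated with Igf1r, Foxp1, marker lists and overlapping genes. The genes and lists were chosen with earlier results of these data known. Alternatives were no replicate block, limma-voom (limma 3.58.1), edgeR with median-of-ratios size factors, with every counted gene kept or with 1 CPM required in 2 libraries, DESeq2 1.42.0, fits of a comparison's own libraries, limma on log2 FPKM plus 1 or 0.1 (for genes averaging 1 or more) or plus 1 without a filter, and leaving out each of the 8 libraries. The edgeR model was tested on simulated counts. Promoter windows came from RefSeq (GRCm38.p6). Some marker genes are not reported here.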

Additional observations from a re-analysis of the deposited data

Results flagged for a closer look

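The genotype effect differed between the subsets for 2 pathway genes, by the interaction term of the edgeR fit. Ptprf rose by 4.75 on the log2 scale in Foxp1-deficient rTreg cells and by 3.36 in Foxp1-deficient aTreg cells, and the difference between these effects was -1.40 (SE 0.13, adjusted p = 0.0192, edgeR). Phlpp1 rose by 2.15 in rTreg and by 0.94 in aTreg cells, with a difference of -1.22 (SE 0.16, adjusted p = 0.0304, edgeR). Both genes rose in 2 of 2 pairs in both subsets. Without the replicate block neither difference passed (adjusted p = 0.181 for Ptprf and 0.218 for Phlpp1, edgeR), while DESeq2 called both (adjusted p = 5.94e-08 and 2.09e-07). Leaving out WT rTreg replicate 2, either Foxp1-deficient rTreg library or Foxp1-deficient aTreg replicate 2 ended the Ptprf call (adjusted p between 0.0775 and 0.175, edgeR). The Phlpp1 call held without either WT aTreg library (adjusted p = 0.00872 and 0.0115, edgeR) and was lost without any of the others (adjusted p between 0.0726 and 0.223, edgeR).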

How the results depend on the processing

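Without the replicate block, the pairing no longer taken into account, the counts of all genes called moved from 814 to 266 between genotypes in rTreg cells, from 586 to 77 in aTreg cells and from 47 to 0 for the difference between these effects, and pathway genes from 6 to 3 in rTreg cells and from 2 to 0 for the difference. Igf1r in aTreg cells was then at -0.44 (adjusted p = 0.105, edgeR), so 0 of the 5 genes passed there, and Irs2 lost both subset calls. No other call of the 5 genes was changed by the block. On log2 FPKM plus 1, plus 0.1, and plus 1 without a filter, all genes called numbered 366, 446 and 128 in rTreg cells, 129, 107 and 19 in aTreg cells, 787, 1027 and 772 between WT subsets (1793 in edgeR), 1087, 1393 and 1125 between Foxp1-deficient subsets (2282 in edgeR), and 2, 2 and 1 for the difference. Igf1r in aTreg cells was at -0.43, -0.46 and -0.43, with 0, 0 and 0 of the 5 genes passing. Pathway genes numbered 2, 3 and 2 between WT subsets, 6, 8 and 6 between Foxp1-deficient subsets and 0, 0 and 0 for the difference, and without a filter 3 in rTreg and 1 in aTreg cells. Without a filter on low counts, edgeR called 1035 genes in aTreg cells and 389 for the difference, 1, 2 and 1 of the 6 genes in rTreg cells, aTreg cells and the difference, and 5 pathway genes in aTreg cells. The libraries of a comparison alone gave 349 genes and 0 of the 6 in aTreg cells, Igf1r at -0.45, and 1 of the 6 in rTreg cells. DESeq2 called 199 genes for the difference and 5 pathway genes between WT subsets. Insr turned sign in rTreg cells with limma-voom (-0.0060), DESeq2 (-0.0030), median-of-ratios size factors (-0.0059), no filter (-0.013) and log2 FPKM (-0.0058, -0.0071 and -0.0058), in aTreg cells (0.0015) and for the difference (0.014) without a filter, and between WT subsets on log2 FPKM (0.0086, 0.0100 and 0.0086). Irs2 in aTreg cells was at -0.0026 on log2 FPKM plus 0.1.

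Leaving out 1 library at a time, all genes called ranged from 214 to 861 in rTreg cells, 117 to 537 in aTreg cells and 1 to 164 for the difference. The genes passing among the 6 ranged from 0 to 1 in aTreg cells, 2 to 3 between WT subsets and 0 to 1 for the difference, and pathway genes from 2 to 6 in rTreg cells, 1 to 4 in aTreg cells, 5 to 9 between WT subsets and 0 to 2 for the difference. Igf1r in aTreg cells ranged from -0.55 to -0.33. Insr ranged from -0.15 to 0.16 in rTreg cells, -0.17 to 0.15 in aTreg cells, -0.17 to 0.13 and -0.22 to 0.10 between WT and Foxp1-deficient subsets and -0.18 to 0.14 for the difference, Irs2 from -0.089 to 0.14 in aTreg cells and -0.19 to 0.040 for the difference, and Igfbp4 from -0.49 to 0.14 in rTreg cells. The fall of Igf2r from rTreg to aTreg cells held in 18 of 18 alternatives in both genotypes, that of Irs2 in 17 of 18, and that of Igfbp4 in 18 of 18 in Foxp1-deficient and 14 of 18 in WT cells. The cause of these changes was not tested. Depth limits the reading of Grb10, Igf1 and the other genes at or under 3 counts.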
